A study of Mus musculus with 2 samples.

Results

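The 6 genes described here, Hoxa10, Hoxc10, Hoxd10, Hoxa11, Hoxc11 and Hoxd11, are the Hox10 and Hox11 paralogues that lie in the Hoxa, Hoxc and Hoxd clusters, 6 of the 55450 genes of the annotation (GENCODE M21, mm10). They were chosen by name, and their open chromatin was followed in single-nucleus ATAC-seq of E15.5 mouse kidneys. A peak was taken as a member when it overlapped the gene body or the 2 kb upstream of it by at least 1 bp. This gave 13 of the 159560 peaks called in the Enl-WT library and 11 of the 130027 called in the Enl-T1 library. Joining the peaks of both libraries that overlapped left 9 shared regions at these genes, of 110706 shared regions in all.

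There were 2 groups with 1 library each. Enl-T1 kidneys carried 1 allele of Enl (also named Mllt1) that switches to an in-frame insertion found in Wilms tumour (T1) once Cre acts, together with the Wt1 GFPCre knock-in allele, and Enl-WT kidneys were Enl +/+ with the same Wt1 GFPCre allele. Both groups therefore had 1 copy of Wt1 replaced by the knock-in, and Cre acts in the nephron and stromal lineages, where Wt1 is expressed. The mice were on a B6 background, but the paper made the Enl-T1 allele in embryonic stem cells of a hybrid between B6 and another strain. No source read for this report says how many embryos were pooled per library. With no replicate, no difference between Enl-WT and Enl-T1 could be tested: every interval given here is an exact 95% interval that covers counting error only, and the spread between kidneys is not known. Open chromatin at Enl itself cannot check the labels, since the insertion leaves the gene in place.

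Hox proteins are homeodomain transcription factors that give cells their position along the body axis. The Hox11 paralogues act redundantly in the metanephric mesenchyme, the tissue that gives rise to nephrons and stroma: together with Eya1 and Pax2 they turn on Gdnf and Six2, and kidneys fail to form without them. The Hox10 paralogues are known in the kidney for their role in the cortical stroma, and all these proteins bind DNA with cofactors of the Pbx and Meis families. Open chromatin at a gene is a measure of access to its DNA and not of its transcript.

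The start sites are shown because the members differ in how they stand in the peaks: both Hoxd11 starts, both Hoxa10 starts and the single Hoxd10 and Hoxa11 starts are given, as RefSeq (GRCm38.p6) has them for 4 of the 6 members. Each sequence runs 5′ to 3′ on the strand of the gene from 250 bases before a start to 50 after it, with CpG dinucleotides, the site of DNA methylation, in capitals.
Hoxd11 upstream start, chr2:74679308-74679607, plus strand, in a region called only in Enl-WT: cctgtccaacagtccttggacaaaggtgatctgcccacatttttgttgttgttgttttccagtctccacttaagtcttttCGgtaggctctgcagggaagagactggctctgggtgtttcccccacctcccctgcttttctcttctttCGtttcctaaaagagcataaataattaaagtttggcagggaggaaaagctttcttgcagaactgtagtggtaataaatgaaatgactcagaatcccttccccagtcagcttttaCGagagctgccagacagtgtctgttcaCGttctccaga
Hoxd11 downstream start, chr2:74682073-74682372, plus strand, in a shared region: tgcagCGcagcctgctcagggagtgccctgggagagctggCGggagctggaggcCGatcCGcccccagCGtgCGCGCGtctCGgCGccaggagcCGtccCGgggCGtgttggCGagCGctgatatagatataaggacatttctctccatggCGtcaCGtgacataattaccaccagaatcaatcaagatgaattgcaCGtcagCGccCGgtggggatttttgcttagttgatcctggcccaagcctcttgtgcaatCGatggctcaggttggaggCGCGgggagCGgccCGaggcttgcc
Hoxd10 start, chr2:74691641-74691940, plus strand, in a shared region: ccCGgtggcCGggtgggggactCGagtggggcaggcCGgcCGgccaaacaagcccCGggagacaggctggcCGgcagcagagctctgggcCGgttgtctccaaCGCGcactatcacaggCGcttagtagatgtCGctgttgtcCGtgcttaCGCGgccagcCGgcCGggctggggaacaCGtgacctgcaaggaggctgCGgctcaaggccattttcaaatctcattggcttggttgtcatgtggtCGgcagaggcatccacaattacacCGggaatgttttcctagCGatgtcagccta
Hoxa10 upstream start, chr6:52240805-52241104, minus strand, in a shared region: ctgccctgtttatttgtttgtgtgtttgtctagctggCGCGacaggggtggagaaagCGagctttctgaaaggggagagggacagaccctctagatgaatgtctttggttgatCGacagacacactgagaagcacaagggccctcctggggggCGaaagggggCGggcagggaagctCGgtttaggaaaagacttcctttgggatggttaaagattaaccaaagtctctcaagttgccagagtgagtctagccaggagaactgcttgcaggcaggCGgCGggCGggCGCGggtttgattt
Hoxa10 downstream start, chr6:52234890-52235189, minus strand, in a shared region: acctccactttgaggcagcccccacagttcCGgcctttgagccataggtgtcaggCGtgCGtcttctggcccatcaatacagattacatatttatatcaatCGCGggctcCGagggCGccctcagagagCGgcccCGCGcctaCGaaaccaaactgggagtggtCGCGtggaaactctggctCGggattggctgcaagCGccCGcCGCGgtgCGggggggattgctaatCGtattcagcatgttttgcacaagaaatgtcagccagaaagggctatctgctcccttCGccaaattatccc
Hoxa11 start, chr6:52245761-52246060, minus strand, in a shared region: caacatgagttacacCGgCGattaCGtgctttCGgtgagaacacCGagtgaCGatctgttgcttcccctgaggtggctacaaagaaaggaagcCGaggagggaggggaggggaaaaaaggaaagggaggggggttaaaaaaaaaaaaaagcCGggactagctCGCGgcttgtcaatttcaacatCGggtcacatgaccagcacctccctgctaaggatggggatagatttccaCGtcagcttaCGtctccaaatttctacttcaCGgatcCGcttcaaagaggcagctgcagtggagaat
The downstream Hoxd11 start held 25 CpG, a number that 18.4% of all 32851 such RefSeq sequences reached, and the upstream Hoxd11 start held 4, which 68.6% reached. The median over all sequences was 7 CpG. Hoxd10 had 22 CpG, the downstream Hoxa10 start 21, Hoxa11 15 and the upstream Hoxa10 start 12. So 5 of the 6 start sites were richer in CpG than the median sequence, and the one that was not is the Hoxd11 start whose peak was called only in Enl-WT. The Hoxc11 start, whose peak was also called only in Enl-WT, has no sequence here. These starts therefore cannot relate CpG content to the calling of a peak. The strings searched on both strands were TTTACGA and TTTATGG, forms of the site of posterior Hox proteins, and TGATTGAT, a joint site of Pbx and Hox. TTTACGA, which holds a CpG itself, had a match in the upstream Hoxd11 start and in 0.597% of all sequences, and TGATTGAT had one in the downstream Hoxd11 start and in 0.746% of all. TTTATGG had none in the 6 sequences and a match in 2.75% of all.

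Each region is named by the distance of its centre from the 5′-most annotated start of its gene, in the direction of transcription. Hoxa10 (chr6:52231197-52240854, minus strand) had 3 regions. The 0.2 kb region covers the upstream start (Enl-WT peak chr6:52240264-52241153), the 6.6 kb region covers the downstream start and coding exons (Enl-WT peak chr6:52233060-52235456) and the 10.1 kb region reaches into the 3′ UTR (Enl-WT peak chr6:52230243-52231272). The 6.6 kb region was called as 1 peak of 2397 bp in Enl-WT and as 2 peaks of 1697 bp together in Enl-T1, and the Enl-T1 peak of the 10.1 kb region ends just outside the gene. Only 76 of the 1030 bp of the 10.1 kb Enl-WT peak lie in the Hoxa10 window. Both this peak and the 6.6 kb Enl-WT peak also fall in the window of Hoxa9. Hoxa11 (chr6:52242106-52245810, minus strand) had 1 region over its start (Enl-WT peak chr6:52245295-52246314), and Hoxd10 (chr2:74691924-74695105, plus strand) also had 1, at -0.2 kb (Enl-WT peak chr2:74691319-74692158).

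Hoxd11 (chr2:74679557-74687016, plus strand) had the most regions. The shared ones lie at 0.9 kb in an intron (chr2:74679995-74680837), at 2.4 kb over the downstream start and its coding exon (chr2:74681555-74682455) and at 4.2 kb over coding sequence and UTR (chr2:74683303-74684205). A further pair was called only in Enl-WT, at -2.5 kb (chr2:74676528-74677615), which also falls in the window of Hoxd12, and at -0.2 kb over the upstream start (chr2:74678901-74679768). Only 59 of the 1088 bp of the -2.5 kb peak lie in the Hoxd11 window. Hoxc10 (chr15:102966796-102971893, plus strand) had a shared region over its start (Enl-WT peak chr15:102966235-102967319), an Enl-WT peak at 4.3 kb (chr15:102970663-102971533) and an Enl-T1 peak at 5.4 kb (chr15:102971802-102972584). Every Hoxc10 peak of either library, that over the start included, also falls in the window of Hoxc5. Hoxc11 (chr15:102954427-102957708, plus strand) had an Enl-WT peak over its start at 0.4 kb (chr15:102954387-102955319) and an Enl-T1 peak upstream at -0.9 kb (chr15:102953199-102953899), which do not overlap.

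In all, 4 of the 13 Enl-WT member peaks (30.8%) had no overlapping peak in Enl-T1, where 30% of all Enl-WT peaks had none. Of the 11 Enl-T1 member peaks 2 (18.2%) had none in Enl-WT, against 13.4% of all Enl-T1 peaks. Peaks were called in each library apart and from libraries of different depth, so a peak called in only 1 library has no count in the other, and no ratio is given for Hoxc11. ATAC-seq does not tell the strand, and the windows of neighbouring Hox genes overlap, so a region cannot be given to 1 gene alone.

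**Figure D1:**
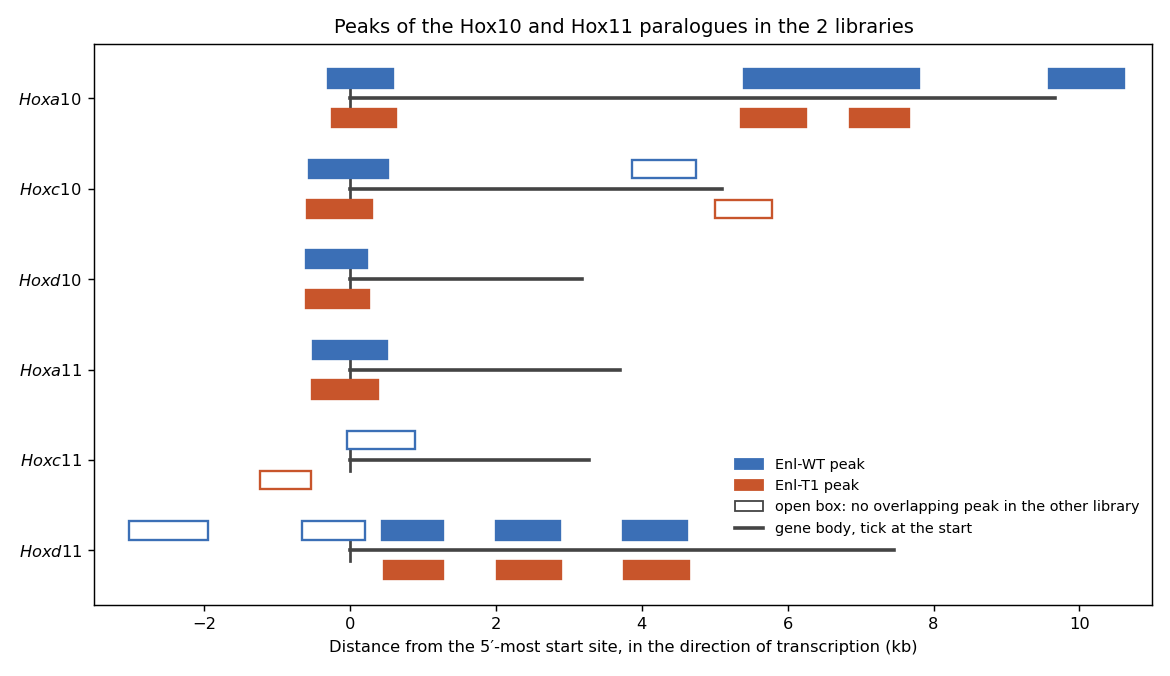
Peaks of the 6 genes in each library, drawn to scale by distance (kb) from the 5′-most start site in the direction of transcription; blue boxes are Enl-WT peaks, orange boxes Enl-T1 peaks, and open boxes have no overlapping peak in the other library. Of the 13 Enl-WT peaks 4 are open, at Hoxc10, Hoxc11 and Hoxd11, and of the 11 Enl-T1 peaks 2 are, at Hoxc10 and Hoxc11.

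The Enl-WT library held 9472 nuclei with a median of 14789.5 counts, and the Enl-T1 library 12635 with a median of 8753, so the Enl-WT values rest on deeper nuclei. The libraries shared 149 barcode sequences. Nuclei were clustered without the 4 Hox clusters, so that the Hox levels played no part in making the classes, and a cluster was named from marker genes. The ureteric, stromal, endothelial, podocyte, distal tubule, muscle and immune classes are rebuilt, marker-based names (written as ureteric epithelium-like and so on). Nephron progenitors had to be compared by cluster number. Cluster 1 (progenitor-like, 1822 Enl-WT nuclei) held only 102 Enl-T1 nuclei, while among the clusters with at least 500 Enl-T1 nuclei the progenitor marker score was highest in cluster 11 (progenitor-like, 791 nuclei) and cluster 0 (3153 nuclei). Cluster 0 stayed unnamed because Cdh6, an early nephron marker, and no progenitor marker was among its 10 leading genes. The smaller cluster 16 (progenitor-like, 91 Enl-WT and 361 Enl-T1 nuclei) entered only an alternative that pooled clusters, and the unnamed cluster 17 (109 and 152) was not compared. Cluster 7 also stayed unnamed, as genes of the proximal tubule such as Hnf4a led it.

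Within the Enl-WT library 5 of the 6 members were less open in ureteric epithelium-like and immune-like nuclei than in cluster 1 and in stroma-like nuclei, and Hoxd10 was low in immune-like nuclei alone. The class with the highest level differed between members. Levels are depth-scaled counts (CPM, with the counts in shared regions as the total), summed over the Enl-WT peaks of a gene. Hoxd11 was at 141.9 CPM in cluster 1, 106.9 in podocyte-like, 96.8 in interstitial stroma-like, 84.1 in distal tubule-like, 68.2 in cluster 7, and 24.1 in both endothelial-like and ureteric epithelium-like nuclei. The -2.5 kb region, which lies mostly outside the Hoxd11 window, gave 38.2 of the 141.9 CPM in cluster 1 and 10.9 of the 96.8 in stroma-like nuclei. Hoxa10 stood highest in stroma-like (105.3 CPM) and distal tubule-like nuclei (105.2), with 88.8 in cluster 7, 86.7 in smooth muscle or ureteric stroma-like nuclei, 77.6 in cluster 1, 71.1 in podocyte-like, 67.6 in endothelial-like, 22.7 in ureteric epithelium-like and 21.4 in immune-like nuclei. Stroma-like and distal tubule-like nuclei did not differ in this Hoxa10 sum beyond their counting intervals. The 10.1 kb region, which lies mostly outside the Hoxa10 window and also falls in that of Hoxa9, held unlike shares of the sum. It held 15.3% in stroma-like, 30.1% in distal tubule-like, 31.5% in cluster 7 and 30.6% in cluster 1 nuclei. The near-equal sums of stroma-like and distal tubule-like nuclei therefore rest partly on this region.

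Hoxa11 was at 38.2 CPM in cluster 1, 36.2 in stroma-like, 28.1 in distal tubule-like, 25.8 in podocyte-like, 14.8 in endothelial-like and 5.74 in ureteric epithelium-like nuclei. Cluster 1 and the stroma did not differ in Hoxa11 beyond their counting intervals. Hoxc10 followed the same order at its top, with 58.4 CPM in cluster 1 and 56.6 in stroma-like nuclei, and was lower in distal tubule-like (32.8), endothelial-like (18.8) and ureteric epithelium-like nuclei (11.98). Hoxc11 was at 12.9 CPM in cluster 1, 14.7 in stroma-like nuclei but 3.04 in ureteric epithelium-like nuclei, and 0 of 99 immune-like nuclei had a count, which allows a share of up to 3.03% of nuclei with one. Hoxd10 was nearly even across kidney classes: 24.9 CPM in cluster 1, 27.1 in stroma-like, 28.0 in distal tubule-like, 25.4 in podocyte-like, 21.9 in endothelial-like and 21.8 in ureteric epithelium-like nuclei, and 5.63 in immune-like nuclei.

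Per kb of peak, the only scale on which genes are compared with each other here, the Enl-WT levels over all nuclei were 30.7 CPM per kb for Hoxd10, 28.1 for Hoxa11, 23.6 for Hoxc10, 19.5 for Hoxd11, 19.0 for Hoxa10 and 12.2 for Hoxc11. Per kb, Hoxc11 was thus the least open member, and Hoxd10, with a single peak, the most open.

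The share of nuclei with at least 1 count followed the levels. For Hoxa10 it was 44.3% of 2799 stroma-like nuclei (exact binomial interval 42.4% to 46.1%), 13.6% of 874 ureteric epithelium-like nuclei (11.4% to 16.1%) and 9.09% of 99 immune-like nuclei (4.24% to 16.6%), at median depths of 13692, 15653 and 10386 counts. With every nucleus thinned to 1000 fragments these shares were 8.82%, 1.94% and 1.54%. For Hoxd10 the shares were 15.7% in the stroma and 14.9% in the ureteric epithelium against 2.02% of immune-like nuclei (0.246% to 7.11%), so the ureteric share lay above that of a class that is not a kidney lineage.

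**Figure D2:**
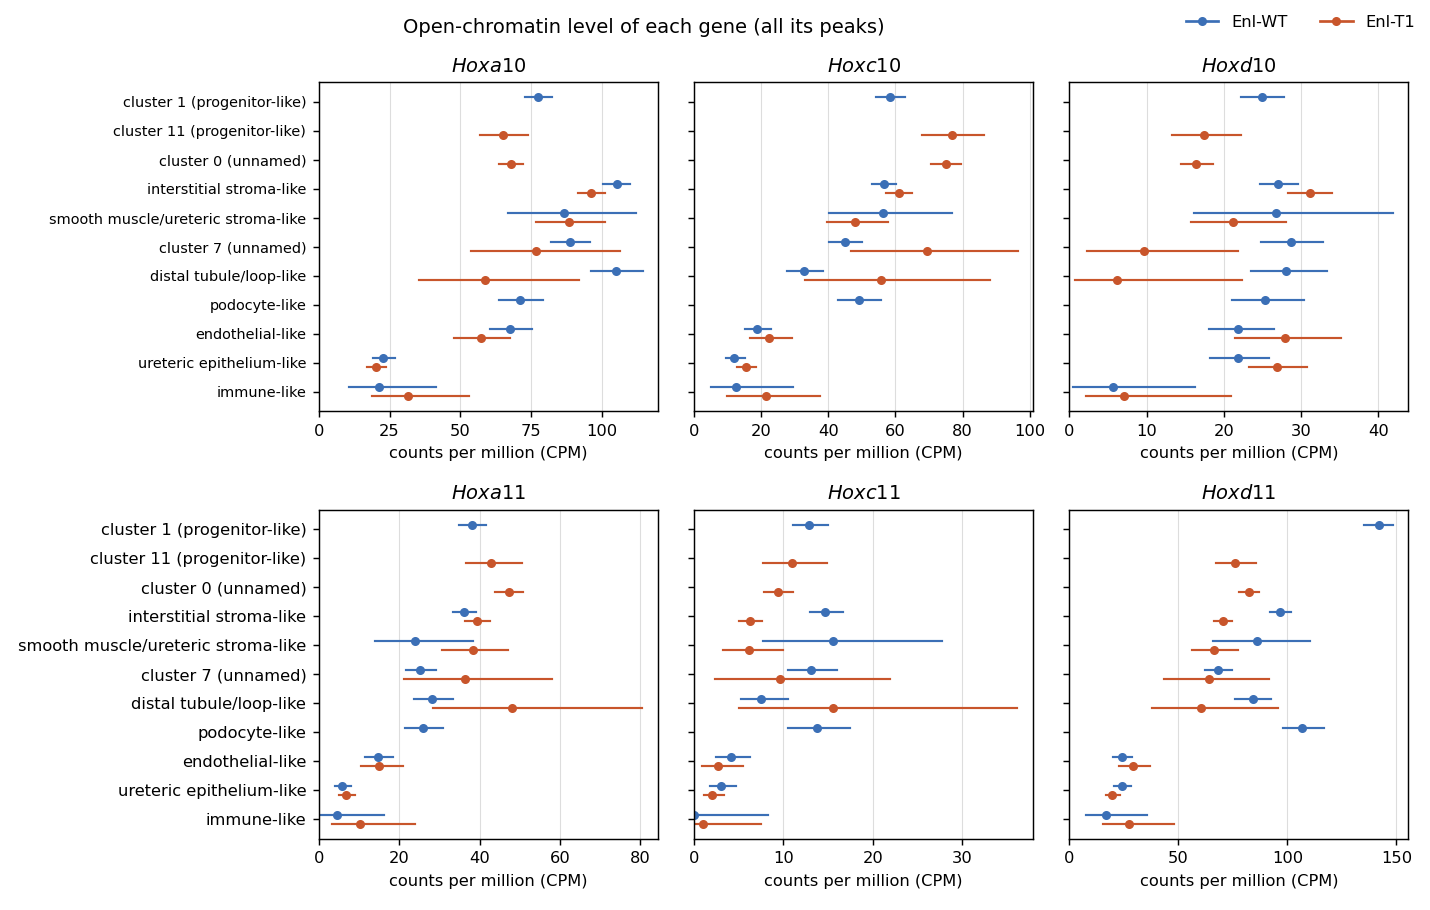
Open-chromatin level (CPM, linear axis from 0) of each gene in each class of nuclei, with exact 95% counting intervals, blue for Enl-WT and orange for Enl-T1; each library is summed over its own peaks, which differ between the libraries for Hoxc10, Hoxc11 and Hoxd11, so those panels are no ratio. Hoxd11 stands at 141.9 CPM in cluster 1 and 24.1 in ureteric epithelium-like nuclei of Enl-WT, while Hoxd10 stays between 21.8 and 28.7 in every Enl-WT class plotted but the immune-like one.

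Region by region within Enl-WT, 12 of the 13 member regions were past 0.5 log2 higher in cluster 1 than in ureteric epithelium-like nuclei with an interval that left out 0. Of the 9 shared ones 8 were, and 33.1% of all shared regions compared were. The median log2 ratio of the 13 was 2.16. The one outside was Hoxd10, with a log2 ratio of 0.19. Between stroma-like and ureteric epithelium-like nuclei the count was also 12 of 13, and 8 of the 9 shared (38.8% of all shared regions), with a median of 2.06 and 0.31 for Hoxd10. Against endothelial-like nuclei 10 of 13 regions were higher in stroma-like nuclei and 9 of 13 in cluster 1, of the shared ones 6 of 9 (36.6% of all shared regions) and 5 of 9 (38.2%). In none of these comparisons was a member region past the fold the other way, where 20.6% (cluster 1 against ureteric), 23.6% (stroma against ureteric), 20.4% (stroma against endothelial) and 20.4% (cluster 1 against endothelial) of all shared regions were.

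Between cluster 1 and the stroma, regions listed under 1 gene went different ways: 4 of the 13 were higher in cluster 1, 2 of them among the 9 shared (30.7% of all shared regions), and 1, also shared, was lower (30.5%). The widest gap was at the Hoxd11 -2.5 kb region, called only in Enl-WT, which was at 38.2 CPM in cluster 1 and 10.9 in stroma-like nuclei (log2 ratio 1.81, interval 1.57 to 2.07). Only 59 of its 1088 bp lie in the Hoxd11 window, and it also falls in the window of Hoxd12. Summed with the Hoxd11 peaks, this region held 26.9% of the counts in cluster 1 and 11.2% in stroma-like nuclei. The Hoxc10 4.3 kb region (log2 0.79), the Hoxd11 4.2 kb region (0.74) and the Hoxa10 10.1 kb region (0.56) were the other 3. The Hoxa10 6.6 kb region over the downstream start was the lower one, at 30.1 CPM in cluster 1 and 58.2 in stroma-like nuclei (log2 -0.95, interval -1.12 to -0.78). So the 6.6 kb and 10.1 kb regions listed under Hoxa10 differed in opposite directions between these classes. Both also fall in the window of Hoxa9, and only 76 of the 1030 bp of the 10.1 kb Enl-WT peak lie in the Hoxa10 window. The starts of Hoxa11, Hoxc10 and Hoxd10 differed by at most 0.12 on the log2 scale.

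**Figure D3:**
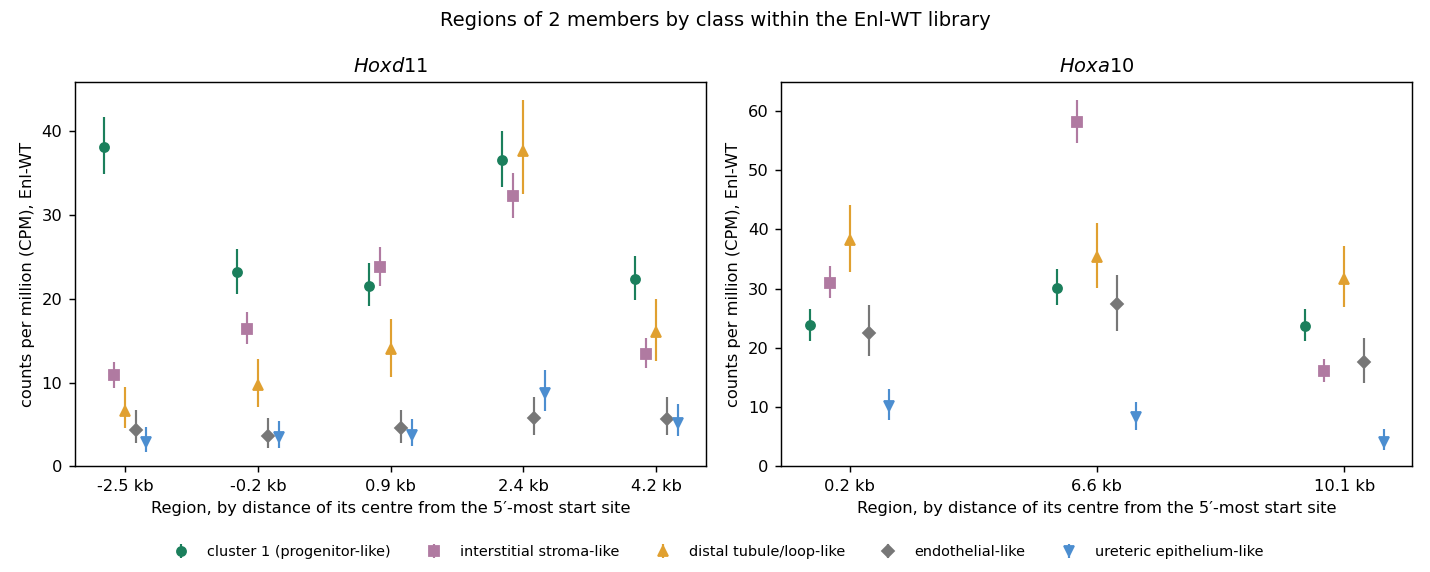
Level of each Hoxd11 (left) and Hoxa10 (right) region within the Enl-WT library (CPM, linear axis from 0, exact 95% counting intervals) in 5 classes of nuclei, placed by the distance of the region from the 5′-most start. The Hoxd11 -2.5 kb region is at 38.2 CPM in cluster 1 and 10.9 in the stroma-like nuclei, and the Hoxa10 6.6 kb region is at 30.1 and 58.2.

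As a description of the pattern, the mean log2(CPM + 1) profile of the 5 members with a shared region was set beside the profiles of 15916 protein-coding genes outside the Hox clusters over 8 classes of Enl-WT nuclei. The profiles most like it were those of Ltbp1 (Pearson r = 0.966), Cdh6 (0.965), Nr2f1 (0.963), Efnb3 (0.96) and Dlk1 (0.957). These r values are over 8 classes of 1 library, which share its depth, and were picked as the highest of 15916. Cdh6 is also on the list of marker genes used to name clusters.

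The comparison of Enl-T1 with Enl-WT asks whether the insertion in Enl goes with a different openness of these Hox genes. Between cluster 1 of Enl-WT and clusters 11 and 0 of Enl-T1 the members did not move one way: regions of Hoxa10, Hoxd10 and Hoxd11 were lower in Enl-T1, the start of Hoxc10 was higher, and the other regions of Hoxd11 were close to Enl-WT. Both comparisons use cluster 1 of Enl-WT, so they share that side and are not 2 separate results. As cluster 0 is unnamed, a difference between the libraries and a difference of cell class cannot be told apart there. Over the 9 shared regions, cluster 11 of Enl-T1 had 1 past 0.5 log2 higher with an interval off 0 (7.57% of all regions) and 3 lower (10.8%), and the median log2 ratio was -0.06 beside -0.04 over all regions. Cluster 0 had 0 higher (13.9% of all regions) and 3 lower (16.6%), with a median of 0.12 beside 0.00 over all regions.

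The Hoxa10 0.2 kb region, over the upstream start, was at 23.8 CPM in cluster 1 of Enl-WT, in Enl-T1 at 12.6 in cluster 11 and 16.03 in cluster 0. The log2 ratios were -0.92 (interval -1.40 to -0.46) and -0.57 (-0.82 to -0.32). The Hoxa10 6.6 kb region over the downstream start was at 30.1 CPM in Enl-WT, 34.0 in cluster 11 and 32.6 in cluster 0, with intervals that held 0. Per kb of peak its log2 ratios were 0.67 (0.37 to 0.98) and 0.61 (0.42 to 0.81), both past the fold, as the Enl-T1 peaks covered 1697 bp there and the Enl-WT peaks 2397 bp. The 2 Hoxa10 starts therefore did not differ alike. Among the counts in shared Hoxa10 regions, a measure that does not depend on the scaling of the libraries, the upstream start held 30.7% (27.8% to 33.6%) in cluster 1 of Enl-WT, 19.4% (14.5% to 25.1%) in cluster 11 and 23.6% (21.0% to 26.4%) in cluster 0.

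Hoxd11 showed a like contrast within 1 gene. Its 0.9 kb region, in the intron between the starts, was at 21.5 CPM in cluster 1 of Enl-WT and at 12.2 in both cluster 11 and cluster 0 of Enl-T1. The log2 ratio was -0.82 in both, with intervals of -1.30 to -0.35 and -1.10 to -0.55. The 2.4 kb region over the CpG-rich downstream start was at 36.6 CPM in Enl-WT, 42.4 in cluster 11 (log2 0.21, -0.06 to 0.48) and 43.2 in cluster 0 (0.24, 0.07 to 0.42). The 4.2 kb region was at 22.4, 21.5 and 27.0 CPM. The 0.9 kb region held 26.7% (24.1% to 29.6%) of the counts in shared Hoxd11 regions in cluster 1 of Enl-WT, 15.99% (12.01% to 21.1%) in cluster 11 and 14.8% (12.8% to 16.9%) in cluster 0. Summed over the gene, the gap could not be seen: Hoxd11 had log2 ratios of -0.08 (-0.28 to 0.11) and 0.03 (-0.09 to 0.15).

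Hoxd10, read from its 1 region, was at 24.9 CPM in cluster 1 of Enl-WT, 17.5 in cluster 11 (log2 -0.51, -0.94 to -0.13) and 16.4 in cluster 0 (-0.60, -0.85 to -0.36). Hoxc10 went the other way, from 45.4 CPM at its start to 65.5 in cluster 11 (log2 0.53, 0.31 to 0.75) and 63.2 in cluster 0 (0.48, 0.33 to 0.63). The Enl-T1 peak at the Hoxc10 start was narrower (898 bp against 1085 bp). Both values in cluster 11 lie close to 0.5, and each fell under it in size under some other settings. Hoxa11 had log2 ratios of 0.17 (-0.10 to 0.44) and 0.31 (0.14 to 0.48), both under 0.5. Hoxa10, summed over its 3 regions, had -0.25 (-0.47 to -0.05) and -0.19 (-0.32 to -0.07), but per kb of peak these became 0.07 and 0.13, as the Enl-T1 peaks were narrower, so the gene sum has no settled direction.

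The 102 Enl-T1 nuclei that fell into cluster 1 itself gave a further value. All 9 intervals held 0 there (2.36% of all regions were past the fold higher and 2.56% lower), from a log2 ratio of -0.72 at Hoxd10 (-2.05 to 0.34) to 0.17 at the Hoxd11 2.4 kb region. The Hoxd11 0.9 kb region held 24.3% (11.8% to 41.2%) and the Hoxa10 0.2 kb region 35.3% (19.7% to 53.5%) of the counts in the shared regions of their genes in these nuclei. A difference of the size seen in clusters 0 and 11 was not detectable at this depth. Clusters 1, 11 and 0 each came almost wholly from 1 library, and library and cluster cannot be told apart in these ratios.

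Later nephron nuclei were few in Enl-T1. In distal tubule-like nuclei, 710 in Enl-WT and 76 in Enl-T1, 0 of the 9 regions were higher (1.68% of all regions) and 2 were lower (3.66%). One was Hoxd10, at 28.0 CPM from 267 counts in Enl-WT and at 6.19 from only 4 counts in Enl-T1 (log2 -2.18, -5.24 to -0.30), and the other the Hoxa10 6.6 kb region, at 35.3 from 336 counts and 10.8 from 7 (-1.70, -3.40 to -0.13). In cluster 7, with 1008 and 103 nuclei, Hoxd10 was the 1 lower region (6.67% of all regions) and 0 were higher (3.07%). It stood at 28.7 CPM from 408 counts and 9.61 from 9 (-1.58, -3.63 to -0.37). The Hoxd10 start was thus lower in Enl-T1, past the fold, in clusters 11, 0 and 7 and in distal tubule-like nuclei, and the other 8 regions of cluster 7 had intervals that held 0.

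**Figure D4:**
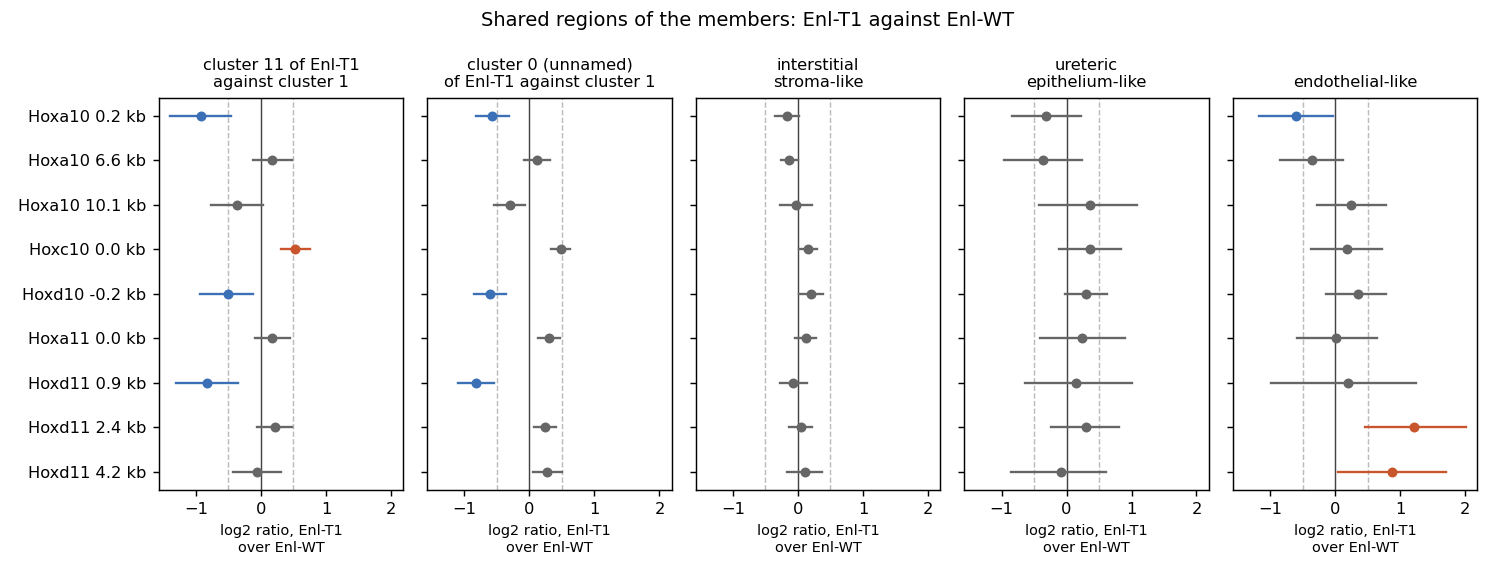
Log2 ratio of Enl-T1 to Enl-WT for the 9 shared regions in 5 comparisons, with exact 95% counting intervals; the solid line marks 0, the dashed lines 0.5 in each direction, and blue and orange points are past it with an interval off 0. In the panels of clusters 11 and 0 Hoxa10 0.2 kb, Hoxd10 and Hoxd11 0.9 kb lie below the line, and no region is coloured in the stroma-like or ureteric epithelium-like panels.

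Over all nuclei of each library, none of the 9 regions was past the fold (12.2% of all regions higher, 7.26% lower), and the log2 ratios ran from -0.47 to 0.34.

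In interstitial stroma-like nuclei (2799 Enl-WT and 4108 Enl-T1) the members differed little. None of the 9 regions passed 0.5 log2 with an interval off 0 (7.98% of all regions were higher and 6.9% lower), and the ratios ran from -0.17 to 0.20. Hoxa10 was at 105.3 CPM in Enl-WT against 96.3 in Enl-T1 (log2 -0.13, -0.23 to -0.03, and 0.20 per kb of peak), Hoxc10 at 49.1 and 54.6 at its start (0.15, 0.02 to 0.29), Hoxd10 at 27.1 and 31.1 (0.20, 0.01 to 0.38), Hoxa11 at 36.2 and 39.3 (0.12, -0.04 to 0.28), and Hoxd11 at 69.5 and 70.3 in its shared regions (0.02, -0.10 to 0.14). The share of Hoxd11 counts in the 0.9 kb region was 34.2% in Enl-WT and 32.2% in Enl-T1, and the share of Hoxa10 counts in the 0.2 kb region was 29.5% and 28.6%.

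Smooth muscle or ureteric stroma-like nuclei (108 and 694) had 0 regions past the fold (4.89% of all regions higher, 8.09% lower), and Hoxd10 was at 26.8 and 21.2 CPM there (log2 -0.33, -1.12 to 0.51).

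Different clusters held part of the stroma in the libraries, as cluster 8 held 1077 Enl-T1 nuclei and 0 Enl-WT nuclei. Within the stroma clusters present in both, cluster 2 had no region past the fold (3.59% of all regions higher, 5.47% lower). Cluster 4 had 1 lower region, Hoxa10 0.2 kb at -0.58 (4.08% of all regions lower, 3.44% higher). Cluster 5 had 1 higher, Hoxd10 at 0.63 (3.09% higher, 3.81% lower), and cluster 9 had 1 lower, Hoxa11 at -0.74 (4.07% lower, 3.1% higher). No member region was past the fold in more than 1 of these 4 clusters. Cluster 9 of Enl-WT set against cluster 8 of Enl-T1 had 0 higher (9.37% of all regions) and 0 lower (15%).

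In ureteric epithelium-like nuclei, where 5 of the members had low levels, none of the 9 regions was past the fold with an interval off 0 (4.76% of all regions higher, 4.1% lower). Hoxd10 was the best measured there, at 21.8 CPM in 874 Enl-WT nuclei and 26.9 in 1725 Enl-T1 nuclei (log2 0.30, -0.02 to 0.63). The intervals at Hoxa11, with 70 and 102 counts, ran from -0.41 to 0.90. Of the clusters in this class, cluster 3 (693 and 929 nuclei) had log2 ratios from -0.49 to 0.475. Cluster 10 (154 and 675 nuclei) had log2 ratios from -1.34 to 1.18. Counts were few in cluster 10, such as 16 in each library at the Hoxa10 6.6 kb region. The share of all regions is not given for either cluster, so regions past the fold are not counted in them. In endothelial-like nuclei 2 regions were higher (2% of all regions) and 1 lower (6.29%). The Hoxd11 2.4 kb region was at 5.80 CPM from 57 counts in Enl-WT and 13.4 from 64 counts in Enl-T1 (log2 1.21, 0.46 to 2.02), and the Hoxd11 4.2 kb region at 5.70 and 10.5 (0.88, 0.04 to 1.71). These Enl-T1 levels stayed below the 33.2 and 14.5 CPM of the same regions in stroma-like nuclei of Enl-T1. The Hoxa10 0.2 kb region was at 22.6 and 14.9 CPM (-0.60, -1.17 to -0.03).

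The factors that work with the Hox10 and Hox11 proteins were read from the same counts, as 14 genes in 4 roles; Eya1, Six2, Foxd1 and others of them are also markers by which kidney nuclei are named. In cluster 11, 0 of the 14 were past the fold higher (1.79% of all genes) and 1 lower (2.54%): Foxd1, the factor of the cortical stroma, at 28.0 CPM in Enl-WT against 14.6 in Enl-T1 (log2 -0.94, -1.39 to -0.52). In cluster 0, Pbx3, a cofactor of Hox proteins, was higher (2.62% of all genes; 121.4 and 178.3 CPM, log2 0.55), and 2 of 14 were lower (3.9%), Foxd1 (27.95 and 12.1 CPM, -1.21) and Itga8, an integrin subunit that acts upstream of Gdnf (63.3 and 41.3 CPM, -0.61). The partner factors Eya1, Pax2 and Sall1 and the targets Six2 and Gdnf were within the fold in both.

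In stroma-like nuclei 0 of the 14 genes were past the fold in either direction (1.25% of all genes higher, 1.06% lower). In ureteric epithelium-like nuclei 0 of the 14 were higher (1.3%) and 1 was lower (0.951%), Foxd1 (13.9 and 7.58 CPM, -0.88). Among the 14, Tcf21 was under the minimum count there. In endothelial-like nuclei Sall1 was higher (13.3 and 24.3 CPM, log2 0.87, 1.75% of all genes) and 0 were lower (1.53%), with Six2 and Tcf21 under the minimum count. Cluster 9 of Enl-WT against cluster 8 of Enl-T1 gave 2 higher genes (4.16% of all genes), Itga8 (log2 0.95) and Eya1 (0.63), and 2 lower (4.66%), Gdnf (-0.74) and Sall1 (-0.56), while the members stayed within the fold there.

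Of the other genes of these 3 Hox clusters, 11 chosen ones, not all, were read in the same way. Among them Hoxa9 shares the 6.6 kb and 10.1 kb regions with Hoxa10, so it is not a separate reading. Past the fold, 1 of the 11 was higher in cluster 11 (1.79% of all genes), 2 in cluster 0 (2.62%), 2 in stroma-like nuclei (1.25%) and 1 in cluster 9 of Enl-WT against cluster 8 of Enl-T1 (4.16%). None was lower in these 4 comparisons, and 2, 2, 2 and 3 of the 11 were under the minimum count. Hoxa13 was higher in Enl-T1 in cluster 11 (10.1 and 21.7 CPM, log2 1.10), in cluster 0 (18.2 CPM, 0.85) and in stroma-like nuclei (9.33 and 13.5 CPM, 0.53). Hoxc8 was higher in stroma-like nuclei (15.9 and 25.5 CPM, 0.68) and in cluster 8 of Enl-T1 against cluster 9 of Enl-WT (40.5 and 19.6 CPM, 1.05, interval 0.68 to 1.43), and Hoxd12 in cluster 0 (19.2 and 27.9 CPM, 0.54).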

How the data were processed

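The authors made 1 single-nucleus ATAC-seq (10x) library per group from embryonic mouse kidneys, Enl-WT or Enl-T1. Per the labels, reads were processed by Cell Ranger ATAC 2.1.0 on mm10. The authors deposited for each library the raw counts of cut sites per peak and barcode, the barcodes, and the peaks called in that library alone. No replicate was available, and no test between groups was run.

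Barcodes with 2000 to 100000 counts were kept (98.4% of 9628 Enl-WT barcodes and 94.5% of 13376 Enl-T1 barcodes), of 138176616 and 110265593 counts in all. Peaks overlapping by at least 1 bp were joined into shared regions, which held 88.8% and 94.9% of the counts. All deposited peaks lay within the reference chromosomes. Nuclei were clustered on 110535 regions (TF-IDF, components 2 to 30, 15 neighbours, Leiden resolution 1; leidenalg 0.10.2, igraph 0.11.9, scikit-learn 1.9.0, scipy 1.17.1), leaving out regions within 20 kb of the Hox clusters. The libraries were not integrated. Doublet-like nuclei were kept, and their removal (7.58% and 10.1%) was an alternative. A cluster was named when its best marker class scored at least 0.4 log2 with 3 or more markers raised. That class also had to lead the best class of another lineage by 0.1. A cluster stayed unnamed if its 10 leading genes held more markers of another class. So did one whose top 100 regions held over 3 times the median share of counts. The same held below 1/3 of the library's median depth with no own marker among the leading genes. Counts were scaled to CPM over shared regions, with exact Poisson intervals for levels and exact binomial intervals for shares. Intervals of log2 ratios of Enl-T1 over Enl-WT came from exact binomial intervals on the counts as fragments, with a pair of cut sites taken as 1 fragment. PCR copies and droplets are not independent, so intervals cover counting error only. A difference was read as past the fold at 0.5 log2 with an interval that left out 0, and shares of all regions or genes are of those with at least 200 counts. The scripts were tested on simulated counts.

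The members and gene lists were chosen with earlier results of these data known. All 6 members are named, and of the listed factors and neighbours those past the fold, with 1 listed factor not reported here and left out of the counts. Promoter sequences were taken from RefSeq (GRCm38.p6), which held 4 of the 6 members.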

Additional observations from a re-analysis of the deposited data

Results flagged for a closer look

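Hoxd10 stood apart because its log2 ratio of Enl-T1 to Enl-WT had opposite signs in clusters 11 and 0 and in the stroma. It was -0.51 in cluster 11 and -0.60 in cluster 0, both against cluster 1 of Enl-WT, with intervals off 0. In interstitial stroma-like nuclei it was 0.20 (0.01 to 0.38), an interval that only just left out 0 and held it under TMM (low end -0.03), median of ratios (-0.0021), per kb of peak (-0.02) and without doublet-like nuclei (-0.0014). Other nephron nuclei, few in Enl-T1, gave -2.18 (distal tubule-like) and -1.58 (cluster 7), and the ureteric and endothelial values of 0.30 and 0.35 had intervals that held 0. With 1 library per group each side rests on a single sample, and the difference between these ratios was not tested.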

How the results depend on the processing

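Of the alternatives, scaling per kb of peak turned a direction that had an interval off 0: Hoxa10 became 0.1995 in stroma-like nuclei, 0.0734 in cluster 11 and 0.135 in cluster 0 (log2). Per kb of peak, 2 member regions, the Hoxa10 6.6 kb region and the Hoxc10 start, were higher in cluster 11 and the same 2 in cluster 0, and 1, the Hoxc10 start, in ureteric epithelium-like nuclei. A minimum of 5000 counts, keeping the Hox regions and removing doublet-like nuclei each clustered the nuclei anew. There, cluster 11 stands for the cluster picked by the highest progenitor score, of 1263, 2036 and 1130 Enl-T1 nuclei, not for the same 791 nuclei. Cluster 0 was replaced in like manner, and without doublet-like nuclei the Enl-WT side held 1322 nuclei in place of 1822. The 1 region higher in cluster 11, the Hoxc10 start, became 0 with a minimum of 5000 counts, with the Hox regions kept in the clustering and with doublet-like nuclei removed, and cluster 0 had 1 with the counts in all peaks as the total. In endothelial-like nuclei the number higher was 1 with TMM scaling, a minimum of 5000 counts, doublet-like nuclei removed or windows around the starts only, and the number lower was 0 with the counts in all peaks as the total or with median-of-ratios scaling. The number of lower regions in the comparisons of clusters 11 and 0 with cluster 1 was 3 or 2 under each alternative that gave a value. In cluster 11 Hoxd10 came to -0.43 with the counts in all peaks, -0.48 with median of ratios, -0.43 with the Hox regions kept and -0.40 without doublet-like nuclei. In cluster 0 the Hoxa10 0.2 kb region came to -0.49 with the counts in all peaks or a minimum of 5000 counts. The cause of these moves was not tested. Hoxa11 in ureteric epithelium-like nuclei, whose interval held 0, went from 0.24 to -0.44 when a cluster had to lead by 0.2 to be named. Over matched regions only (80% reciprocal overlap) Hoxa10 was -0.61 in cluster 11 and -0.43 in cluster 0. Counts in all peaks moved the median of all endothelial regions by 0.14 log2. Pooling clusters 0, 1, 11 and 16, chosen after seeing the data, changed no gene's side. No paired analysis was possible because each group had 1 library, and no replicate could be left out. Depth limits the distal tubule-like and cluster 7 values most, where regions had as few as 4 and 8 counts in a library, and then the shared cluster 1 (14), smooth muscle or ureteric stroma-like (20), endothelial-like (25) and ureteric epithelium-like (46) values.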
